A study of Mus musculus with 6 samples.

Results

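The 10 nuclear receptor and coregulator genes that set up the gene program of the fat cell were followed here in cultured mouse beige adipocytes: the receptors Pparg, Ppara, Ppard, Rxra, Rxrb, Rxrg and Esrra, the coactivators Ppargc1a and Ppargc1b, and Prdm16. They were chosen by name from knowledge of the pathway and by no rule on their values, but with earlier results of these data known. In the deposited table of 13962 genes 10 of 10 were found, each on 1 row, and 10 of 10 passed the filter on low counts. The series compared gene expression after deletion of Tle3, a Groucho family gene for a protein that represses transcription, with that in undeleted cells, by poly(A) RNA sequencing of 6 libraries. All 6 came from C57BL/6 mouse preadipocytes of the inguinal white depot that had been made immortal with Large T antigen and carried the genotype TLE3F/F CreERT2, that is, floxed Tle3 alleles and a Cre recombinase that tamoxifen activates.

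Both groups were differentiated with insulin (20 nM), T3 (1 nM) and rosiglitazone (1 uM), with isobutylmethylxanthine, dexamethasone and indomethacin for the first 2 days. On day 4 the cells labelled knockout (n = 3) received 500 nM 4-hydroxytamoxifen for 24 hours and the controls (n = 3) the same volume of ethanol, and harvest was on day 10. Rosiglitazone is a synthetic ligand of PPARγ and T3 is the ligand of thyroid hormone receptors, which pair with RXR, so the controls carried both agents too. Neither the driver of the Cre transgene nor the number of cell lines or clones is given in the sources used here, and no cells without Cre received tamoxifen, so effects of the compound, of Cre and of the deletion cannot be told apart. Nothing in the labels says that replicates were separate cultures, so the spread that each p-value rests on is that of these 6 libraries and may be technical.

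PPARs are ligand-activated transcription factors that bind DNA as heterodimers with an RXR, at 2 copies of a short hexamer (half-site). PPARγ is required to form and maintain fat cells, PPARα drives fatty acid oxidation, and PPARδ is the broadly expressed member. PGC-1α and PGC-1β have no DNA-binding domain of their own and are recruited to PPARs, to the estrogen-related receptor ERRα (gene Esrra) and to nuclear respiratory factors, where they raise mitochondrial genes; PRDM16 is a zinc finger coregulator of the brown and beige fat program. TLE3 has been described as a partner of PPARγ in adipocytes and as a competitor of PRDM16.

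Library totals ran from 14606228 to 19294632 counts, and the lowest count of any of the 10 genes in any library was 149. Tle3 counts were higher in the libraries labelled knockout (286.9, 288.9 and 294.2 CPM) than in the controls (151.4, 151.3 and 152.1 CPM), against the label; these counts cover the whole gene, including any exon outside the floxed part, and so cannot check the deletion. CPM are counts scaled to a common library size, with TMM factors. The group is therefore called the libraries labelled knockout, and each direction below rests on those labels. Of 10 adipocyte markers (summed 9490 to 11286 CPM in controls and 10536 to 12134 CPM in the libraries labelled knockout) 10 were detected and 4 rose. Adipoq, Cidec, Lpl, Cfd, Fabp4 and Plin1 are also in the list of PPAR lipid storage targets below, so the lists are not independent. Of 12 preadipocyte and fibroblast markers 12 were detected, 2 rose and 4 fell. Their sum went from 22635 to 26080 CPM in controls to 20629 to 21582 CPM in the libraries labelled knockout. These calls made up 40% of the adipocyte and 50% of the preadipocyte list, against 12.3% of all tested genes. Of 8 leukocyte markers 4 were in the table (summed 5.48 to 7.4 CPM in controls and 6.7 to 8.16 CPM in the libraries labelled knockout), of 7 endothelial markers 4 (2.3 to 3.83 and 3.53 to 4.3 CPM) and of 7 skeletal muscle markers 1 (10.8 to 12.5 and 10.3 to 12.1 CPM). In these last 3 lists edgeR, DESeq2 and limma-voom called 0 genes, while 1 leukocyte and 1 endothelial gene had an unadjusted p under 0.05 in edgeR. Without control 2 the preadipocyte markers that fell numbered 7, and without control 3 edgeR called 1 endothelial gene higher.

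Promoter windows of 9 of the 10 genes were searched on both strands (RefSeq, build GRCm38.p6, from 250 bases before to 50 bases after each annotated start, 14 windows). Ppargc1b was not searched, because the windows of its chromosome were left out for the 10 genes. The windows of all genes, used for comparison, still include that chromosome. The motifs were the nuclear receptor half-site AGGTCA and its extended form AAGGTCA, which ERR and other monomeric receptors bind. Also searched were the PPAR-RXR element DR1, a pair of such half-sites in a row with 1 base between them, and the cAMP response element TGACGTCA. Only exact matches were counted, so variants of these motifs were not looked for. AGGTCA is contained in AAGGTCA and in DR1. AGGTCA was present in 4 of 14 windows (16.3% of all 32851 windows of this length hold it) and AAGGTCA in 2 of 14 (4.72% of all windows). The other 2 motifs were in 0 of 14 windows, against 0.0396% and 1.79% of all windows. The 2 windows with AAGGTCA belong to Rxra and Rxrg, paralogs whose levels moved in opposite directions, and they are shown with the matches in capitals beside those of Ppargc1a and Esrra, which both rose and hold none of the 4 motifs. The windows lie at chr2:27709042-27709341 (plus strand, the downstream of 2 starts of Rxra), chr1:167618015-167618314 (plus strand, the downstream of 2 starts of Rxrg), chr5:51567676-51567975 (minus strand) and chr19:6921759-6922058 (minus strand). Each is written 5′ to 3′ along its gene.
Rxra: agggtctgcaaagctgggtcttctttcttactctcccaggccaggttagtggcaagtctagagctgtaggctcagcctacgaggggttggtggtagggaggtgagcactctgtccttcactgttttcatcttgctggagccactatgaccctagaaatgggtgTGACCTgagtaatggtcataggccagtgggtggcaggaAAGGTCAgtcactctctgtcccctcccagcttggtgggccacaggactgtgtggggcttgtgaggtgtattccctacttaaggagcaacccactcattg
Rxrg: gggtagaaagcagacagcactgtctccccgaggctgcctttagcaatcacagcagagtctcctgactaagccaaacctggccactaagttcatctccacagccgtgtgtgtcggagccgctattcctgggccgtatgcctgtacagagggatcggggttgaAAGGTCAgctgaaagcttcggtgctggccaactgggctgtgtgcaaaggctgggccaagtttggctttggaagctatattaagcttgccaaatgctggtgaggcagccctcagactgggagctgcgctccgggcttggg
Ppargc1a: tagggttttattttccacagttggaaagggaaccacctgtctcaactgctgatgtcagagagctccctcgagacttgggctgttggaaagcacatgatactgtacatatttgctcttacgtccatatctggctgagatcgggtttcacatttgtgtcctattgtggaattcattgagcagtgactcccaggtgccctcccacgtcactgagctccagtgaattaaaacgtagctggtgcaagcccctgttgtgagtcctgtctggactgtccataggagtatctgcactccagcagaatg
Esrra: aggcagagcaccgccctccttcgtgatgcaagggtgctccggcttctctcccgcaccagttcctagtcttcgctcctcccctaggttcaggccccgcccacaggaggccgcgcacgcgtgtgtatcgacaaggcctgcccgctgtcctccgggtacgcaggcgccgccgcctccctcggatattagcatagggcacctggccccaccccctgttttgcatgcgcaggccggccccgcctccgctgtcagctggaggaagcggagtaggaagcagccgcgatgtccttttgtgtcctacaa
In the Rxra window AAGGTCA begins 49 bases before the annotated start and a second half-site, read on the opposite strand as TGACCT, begins 87 bases before it. In the Rxrg window AAGGTCA begins 89 bases before the start. The other AGGTCA matches were at 2 of the 3 annotated starts of Pparg, 28 and 9 bases upstream. These matches describe letters in a window; the counts are per gene and do not separate starts.

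In the libraries labelled knockout 5 of the 10 genes rose (Ppara, Rxrg, Ppargc1a, Ppargc1b and Esrra), 1 fell (Rxra) and 4 did not pass the test (Pparg, Ppard, Rxrb and Prdm16). A gene was said to rise or fall at an adjusted p under 0.05 in edgeR's quasi-likelihood test, with Benjamini-Hochberg adjustment over 13192 tested genes; 12.3% of those genes passed, 6.91% higher and 5.44% lower. The changes were of modest size, from 0.794-fold to 1.47-fold among the 6 that passed, in a data set whose called genes had a median absolute log2 fold change of 0.30. Library values of 7 genes were all higher than every control and those of 1 were all lower, so 8 of 10 did not overlap; of all tested genes 31.8% did not overlap, 16.0% higher and 15.8% lower. Leaving out 1 library at a time gave between 4 and 6 rises and 1 fall.

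**Figure D1:**
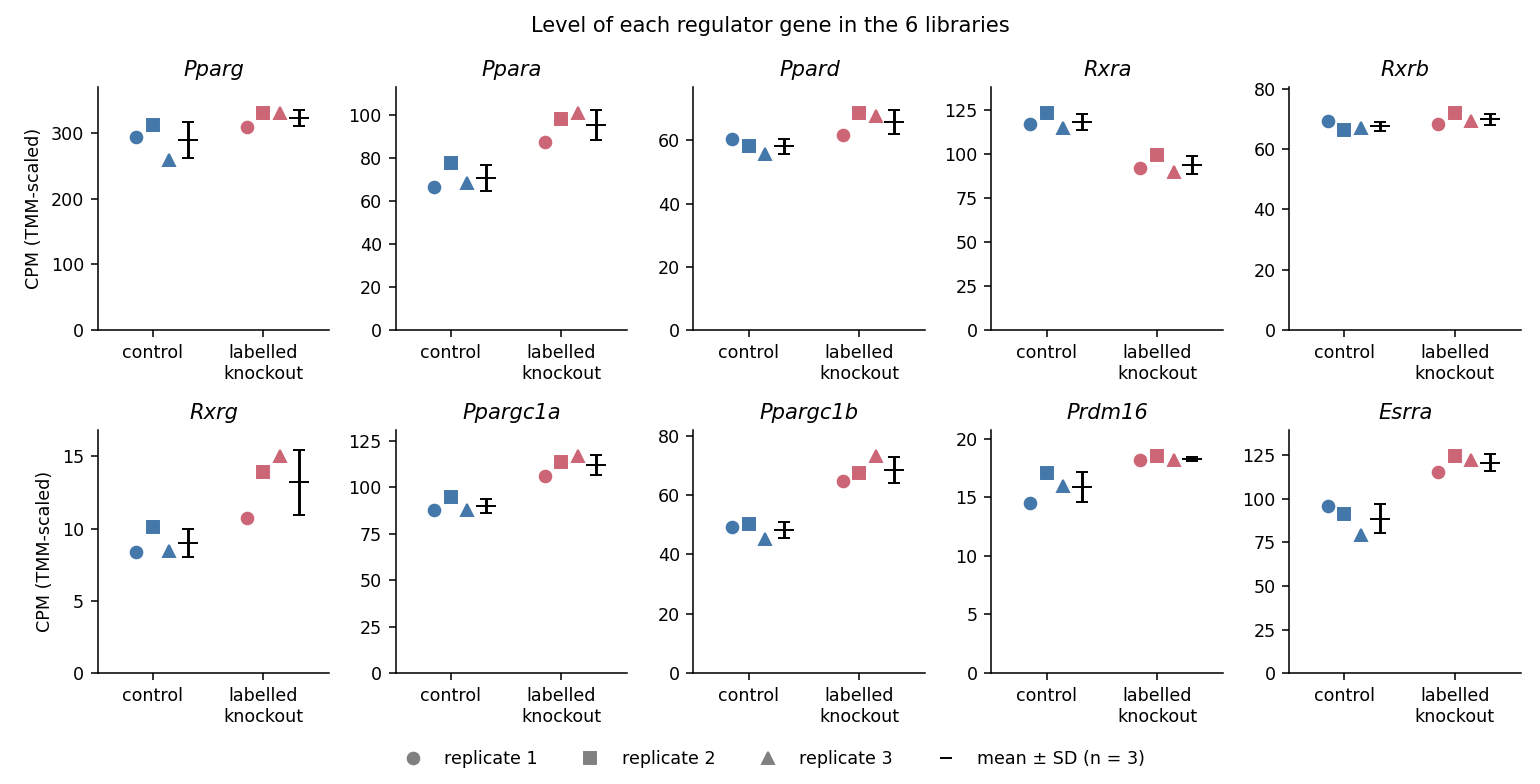
Level of each of the 10 genes in CPM (each axis from 0), with 1 point per library, blue for controls and red for the libraries labelled knockout, and mean ± SD (n = 3) in black. The groups are separate for Ppara, Ppard, Rxra, Rxrg, Ppargc1a, Ppargc1b, Prdm16 and Esrra and overlap for Pparg and Rxrb.

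Of the PPAR genes, Ppara rose and the other members did not pass the test. Ppara (ENSMUSG00000022383), the receptor tied to fatty acid oxidation, stood at 66.5, 77.8 and 68.7 CPM in controls 1 to 3 and at 87.4, 98.2 and 101 CPM in knockout 1 to 3. Each library labelled knockout lay above each control. Its mean level rose 1.35-fold, from 71 ± 5.97 to 95.5 ± 7.17 CPM (SD, n = 3; log2 0.43, SE 0.069, 95% interval 0.28 to 0.58; edgeR adjusted p 0.0033).

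Pparg (ENSMUSG00000000440), the master regulator of the adipocyte, was at 294, 312.5 and 259 CPM in controls and at 308, 329.6 and 329.4 CPM in the libraries labelled knockout. The groups overlapped, since knockout 1 lay below control 2, and control 3 was the lowest of the 6. The log2 difference was 0.16 (SE 0.064, 95% interval 0.02 to 0.30; edgeR adjusted p 0.128). Without control 2 it was 0.22 and passed (adjusted p 0.0301). When any other 1 library was left out it did not pass (adjusted p 0.12 to 0.333), and without control 3 it was 0.09. The counts do not separate the PPARγ1 and PPARγ2 isoforms, which are made from different starts of the gene.

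Ppard (ENSMUSG00000002250) was at 60.5, 58.2 and 55.8 CPM in controls and at 61.6, 68.6 and 67.6 CPM in the libraries labelled knockout. The groups did not overlap, with knockout 1 only slightly above control 1. The log2 difference of 0.18 (95% interval 0.06 to 0.30) narrowly missed the threshold (edgeR adjusted p 0.0537) and passed it without knockout 1 (log2 0.23, adjusted p 0.03). It did not pass when any other 1 library was left out (edgeR adjusted p 0.0666 to 0.196), nor with DESeq2 (0.111).

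The RXR genes, whose products are the obligate partners of the PPARs, did not move together. Rxra (ENSMUSG00000015846) fell, from 116.8, 123.1 and 114.7 CPM in controls to 92.3, 99.3 and 89.7 CPM in the libraries labelled knockout. Every library labelled knockout was below every control. Its mean level went from 118.2 ± 4.34 to 93.8 ± 4.98 CPM (SD, n = 3), or 0.794-fold (log2 −0.33, SE 0.05, 95% interval −0.44 to −0.22; edgeR adjusted p 0.00234).

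Rxrg (ENSMUSG00000015843), the RXR gene otherwise known from muscle and nervous tissue, rose from 8.4, 10.1 and 8.47 CPM to 10.7, 13.9 and 15 CPM. The groups did not overlap, but knockout 1 lay close to control 2. This was the largest and the least precise fold change among the 10 genes, at 1.47-fold (log2 0.56, SE 0.13, 95% interval 0.27 to 0.85; edgeR adjusted p 0.0202), and it rests on 149 to 224 counts per library. The call was lost without control 1 (adjusted p 0.0749), control 3 (0.0539), knockout 2 (0.07) or knockout 3 (0.103), with log2 fold changes of 0.46 to 0.52.

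Rxrb (ENSMUSG00000039656), the broadly expressed RXR, was at 69.2, 66.3 and 66.8 CPM in controls and at 68.1, 71.8 and 69.4 CPM in the libraries labelled knockout. The groups overlapped, with control 1 above knockout 1. The log2 difference was 0.05 (95% interval −0.05 to 0.15; edgeR adjusted p 0.53).

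Both PGC-1 coactivator genes rose. Ppargc1b (ENSMUSG00000033871), which encodes PGC-1β, stood at 49.1, 50.2 and 45.1 CPM in controls and at 64.6, 67.5 and 73.1 CPM in the libraries labelled knockout. The groups were widely separate, and this was the smallest adjusted p among the 10 genes. From 48.1 ± 2.71 to 68.4 ± 4.33 CPM (SD, n = 3), the mean rose 1.42-fold (log2 0.51, SE 0.06, 95% interval 0.38 to 0.64; edgeR adjusted p 0.000607).

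Ppargc1a (ENSMUSG00000029167), which encodes PGC-1α, the coactivator induced by cold and adrenergic signals, was at 87.6, 94.5 and 87.8 CPM in controls and at 106.2, 113.3 and 116.6 CPM in the libraries labelled knockout. Here too the groups did not overlap, and the rise was 1.25-fold (log2 0.32, SE 0.051, 95% interval 0.21 to 0.43; edgeR adjusted p 0.00324). Pprc1, the remaining gene of the family, taken from the coactivator list, went the other way, from 91.2, 87.6 and 92.2 CPM to 82.4, 79.4 and 73.4 CPM. Pprc1 fell by 0.20 on the log2 scale (edgeR adjusted p 0.026), a call that was lost without control 1 (adjusted p 0.0975), control 3 (0.0738), knockout 2 (0.0642) or knockout 3 (0.125).

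Esrra (ENSMUSG00000024955), whose product ERRα binds mitochondrial genes together with PGC-1, rose from 95.7, 91 and 79.4 CPM to 115.5, 124.4 and 122.5 CPM. No library labelled knockout was as low as any control, and control 3 was again the lowest. Its mean of 88.7 ± 8.38 CPM rose 1.36-fold to 120.8 ± 4.66 CPM (SD, n = 3; log2 0.45, SE 0.065, 95% interval 0.30 to 0.59; edgeR adjusted p 0.00198). In GENCODE M21, 1.66% of the exonic bases of Esrra overlap the oppositely oriented Trmt112 and 2.07% overlap Mir6990, and the strand setting of the counting is not given in the sources used here. Its paralog Esrrg, more abundant in oxidative tissues, was scarce at 6.71, 5.08 and 5.36 CPM in controls and 8.36, 9.06 and 9.04 CPM in the libraries labelled knockout. Esrrg rose 1.54-fold (log2 0.62, edgeR adjusted p 0.0101), a call lost without knockout 3 (adjusted p 0.0528), and Esrrb was not analysed here.

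Prdm16 (ENSMUSG00000039410) was at 14.5, 17.1 and 16 CPM in controls and at 18.2, 18.5 and 18.2 CPM in the libraries labelled knockout. The 3 values labelled knockout were nearly identical and above every control, but the controls were spread, and the log2 difference of 0.21 (SE 0.079, 95% interval 0.04 to 0.38) did not pass (edgeR adjusted p 0.112; 0.0605 to 0.298 over the 12 alternatives). In the same annotation 1.17% of the exonic bases of Prdm16 overlap B230104I21Rik on the other strand.

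**Figure D2:**
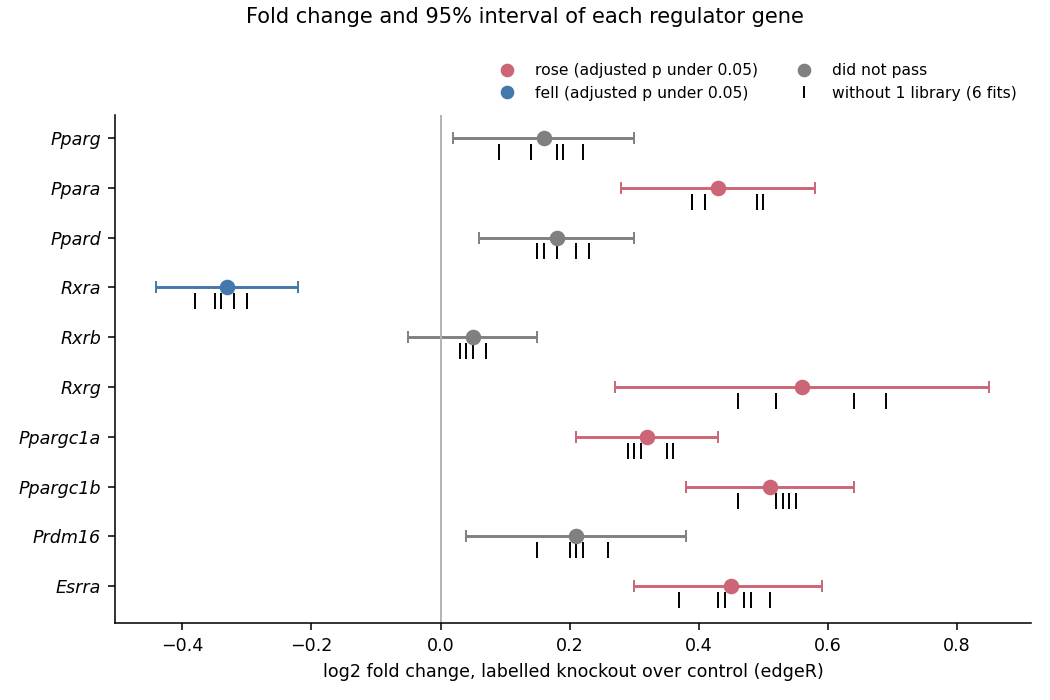
Log2 fold change of each gene, libraries labelled knockout over controls, with its 95% interval (edgeR, n = 3 per group); red genes rose, blue fell and grey did not pass, and the black ticks under each interval are the 6 fits that leave out 1 library. Rxra is the one gene to the left of 0, at −0.33, and the ticks of all 10 genes stay on the side of their main value.

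Of 6 pairs compared inside each library, 5 were relatives within a family and 1 was Ppargc1a with Prdm16, a pair of regulators of thermogenic genes; they were compared as log2 ratios of CPM, which do not depend on how libraries were scaled. The Rxra to Rxrb ratio was 0.75, 0.89 and 0.78 in controls and 0.44, 0.47 and 0.37 in the libraries labelled knockout, a difference of −0.38 with no overlap. The Rxra to Rxrg ratio differed by −0.88, from 3.72 ± 0.10 to 2.84 ± 0.26 (SD, n = 3). The Pparg to Ppara ratio differed by −0.27 and the Ppargc1a to Ppargc1b ratio by −0.19, again with no overlap. For these 4 pairs the exact two-sided permutation test gave p = 0.1, and no smaller p is possible with 3 against 3 libraries, or 0.15 after Benjamini-Hochberg adjustment over 6 pairs, so none could pass. The Pparg to Ppard ratio (2.31 ± 0.11 and 2.29 ± 0.03; exact permutation p = 0.9) and the Ppargc1a to Prdm16 ratio (2.51 ± 0.07 and 2.61 ± 0.07; exact permutation p = 0.2) overlapped between groups (SD, n = 3 per group).

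Levels of different genes can be compared only per length, for which the authors' deposited FPKM values, rounded to whole numbers, were read. Pparg was by far the most abundant, at 146 ± 12.8 FPKM in controls (SD, n = 3), above 98.1% of the genes in the table. Esrra followed at 35.3 ± 3.06 FPKM and Rxra at 21.3 ± 0.577 FPKM. Ppara (18.3 ± 1.53 FPKM) and Rxrb (18.3 ± 0.577 FPKM) did not differ beyond their spread, nor did Ppargc1a (13.3 ± 0.577), Ppard (12.7 ± 0.577) and Ppargc1b (12 ± 1). Rxrg was listed at 4 FPKM and Prdm16 at 2 FPKM in every control, the latter above 22.4% of the genes. In the libraries labelled knockout Ppara (24.7 ± 1.53 FPKM) stood above Rxrb (19 in each library) and Rxra (17 ± 1 FPKM), whereas Rxra had stood above both in the controls, and Ppargc1b (17 ± 1 FPKM) and Ppargc1a (16.7 ± 0.577 FPKM) were level. With CPM per kilobase of GENCODE exon length in place of FPKM, 5 of the 10 genes kept their rank in controls. Pparg stayed first and Rxrg and Prdm16 last, while Rxra moved ahead of Esrra. On that scale Ppard (7.74 ± 0.31) lay below Ppargc1a (13.6 ± 0.594) and Ppargc1b (12.1 ± 0.679) in controls, beyond their spread (SD, n = 3).

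Shares of the summed FPKM of a family give its make-up. Rxra was 47.7%, 50% and 48.8% of the RXR sum in controls and 41.5%, 41.9% and 39% in the libraries labelled knockout. Rxrb went from 42 ± 1.14% to 45.6 ± 1.24% and Rxrg from 9.16 ± 0.122% to 13.6 ± 1.26% (SD, n = 3 per group; exact two-sided permutation p = 0.1 for each of the 3). Rxra was thus the leading RXR in every control and Rxrb in every library labelled knockout; on the per-kilobase scale Rxra led with 50.9% in controls and stood at 42.4%, against 43.4% for Rxrb, in the libraries labelled knockout, and was still ahead in knockout 2. Pparg made up most of the PPAR sum, at 82.5 ± 0.893% and 80.7 ± 0.495%, and the share of Ppara went from 10.4 ± 0.817% to 12.3 ± 0.388% (SD, n = 3 per group; exact permutation p = 0.1 for both). FPKM values of a few units are coarse after rounding, which limits the Rxrg share.

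**Figure D3:**
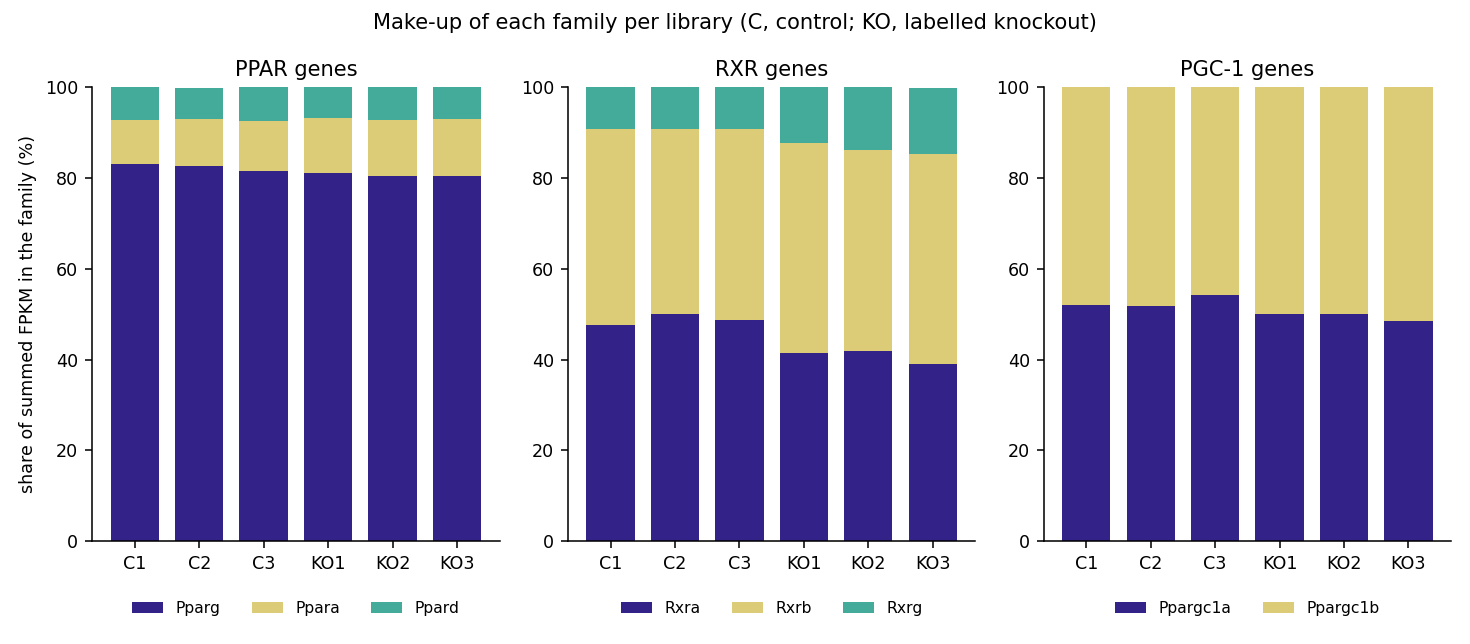
Share (%) of each gene in the summed deposited FPKM of its family, 1 bar per library, controls C1 to C3 and libraries labelled knockout KO1 to KO3. The Rxra segment is 47.7% to 50% of the RXR bar in controls and 39% to 41.9% in the libraries labelled knockout, while Pparg fills over 80% of each PPAR bar.

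Libraries of 1 group also differed from each other in a shared way. Control 3 lay below the mean of its group for 9 of the 10 genes and knockout 1 for 10 of 10, whereas control 2 lay below it for 1 and knockout 2 for 1. These counts were not made over all tested genes, so they do not show a trait particular to the 10. Across genes, control 2 and control 3 differed most of the library pairs within a group (chi-square per degree of freedom 7.53). Control 3 and knockout 1 also had the lowest adipocyte marker sums of their groups. These were 9490 CPM in control 3 against 11055 and 11286 CPM, and 10536 CPM in knockout 1 against 12134 and 11622 CPM. The adipocyte sums of the groups overlapped. Fabp4 and Lpl, with means of 4514 and 3792 CPM in controls, were a large part of them. Lep, Retn, Slc2a4, Lipe, Adipoq and Cidec were each higher in every library labelled knockout than in every control. Lpl was lower in each library labelled knockout, and Cfd, Fabp4 and Plin1 overlapped. The preadipocyte and fibroblast sums were lower in each library labelled knockout (20629 to 21582 CPM) than in any control (22635 to 26080 CPM). A large part of these sums was Fn1, at 9738, 9196 and 10553 CPM in controls and 7293, 6937 and 7351 CPM in the libraries labelled knockout. Lum, Thy1, Pdgfra and Col3a1 were also lower in each library labelled knockout. Pdgfrb, Col1a1, Col1a2, Cd34 and Ly6a overlapped between groups, and Dlk1 and Postn rose, so the sums do not describe every marker. The part that marker levels play in these results was not tested. In bulk RNA fewer cells of a type and less RNA per cell cannot be told apart.

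The genes most alike in pattern were sought over the 6 libraries by Pearson's r of log2(CPM + 0.5), among 7897 genes whose mean was 20 CPM or more, as a description. Closest to Pparg were Srebf1, the gene of a lipogenic transcription factor (r = 0.9991), the oxidoreductase gene Zadh2 (0.9991) and the mitochondrial porin gene Vdac3 (0.9967). Ppargc1a was closest to the mitochondrial ribosomal gene Mrpl13 (0.9975), the ubiquitin ligase gene Rnf139 (0.9954) and the RNA decay gene Upf2 (0.9952). Prdm16 was closest to Mad2l2 (0.9933), Ephx2, a lipid epoxide hydrolase gene (0.9862), and Lmbrd2 (0.9860). With 6 points that share a group split and library effects, high values are common: 213 genes exceeded r of 0.95 with Pparg, 281 with Ppargc1a and 30 with Prdm16.

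Known PPAR targets of the fat cell were listed mainly for lipid storage, with the thermogenic gene Ucp1 among them. Of 22 tested, 7 rose and 1 fell; the median log2 value was 0.16 (−0.002 over all tested genes, of which 12.3% were called). The lipid droplet gene Cidea rose from 222.5 ± 31.4 to 457.7 ± 42.8 CPM, Gpd1, which makes the glycerol backbone of triglycerides, 1.53-fold, the glyceroneogenic Pck1 1.45-fold and the uncoupling protein gene Ucp1 1.45-fold (SD, n = 3; edgeR adjusted p 0.000119 to 0.00241). The droplet coat gene Plin4 fell by 0.21 on the log2 scale (adjusted p 0.0422). Fabp4 and Plin1, classical PPARγ targets, had log2 differences of 0.26 (adjusted p 0.165) and 0.15 (0.18). The rises numbered 4 without knockout 3, and the call for Plin4 was lost without control 1, control 2 or any 1 of the libraries labelled knockout (adjusted p 0.07 to 0.133).

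Among targets for fatty acid oxidation 14 of 23 tested rose and 2 fell (69.6%, against 12.3% of all genes). The median log2 value was 0.25. Cpt1b, the muscle-type gate of fatty acids into mitochondria, rose from 134.3 ± 17.6 to 231.5 ± 21.2 CPM (SD, n = 3; edgeR adjusted p 0.000506), followed by the thiolase gene Acaa2 (1.41-fold, 0.00459), the fatty acid binding gene Fabp3 (1.37-fold, 0.00485) and Ucp2 (1.27-fold, 0.00717). Pdk4, the brake on pyruvate oxidation, and Cpt1a, the liver-type form of the gate, are also PPAR targets and fell, by 0.44 and 0.30 on the log2 scale (adjusted p 0.00548 and 0.00802). The rises numbered 9 without control 1, 8 without knockout 2 and 5 without knockout 3.

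Genes known as targets of PGC-1 and ERRα, mitochondrial except for Vegfa, mostly rose, with a median log2 value of 0.30. Of 17 tested, 0 fell with edgeR, with DESeq2, with limma-voom or at an unadjusted p under 0.05. With edgeR 14 rose (82.4%, against 12.3% of all genes). They included Sdhb of complex II (453.6 ± 24.4 to 583.8 ± 28.6 CPM), Idh3a of the citric acid cycle (1.39-fold), the superoxide dismutase gene Sod2 (1.34-fold) and the ATP/ADP carrier gene Slc25a4 (1.23-fold), with edgeR adjusted p of 0.00204 to 0.00571 (SD, n = 3). The 3 that did not pass, Atp5b, Cox6a2 and Vegfa, had log2 differences of 0.19, 0.12 and 0.09. The rises numbered 8 without knockout 2 and 6 without knockout 3. Among 9 transcription factors of mitochondrial genes, Tfam (log2 0.26, edgeR adjusted p 0.0108), which packages and transcribes mitochondrial DNA, and Gabpa (log2 0.29, 0.0302) rose. These calls were 22.2% of the list, against 12.3% of all genes, and the list median was 0.11. Nrf1, at a log2 difference of 0.02 (adjusted p 0.847), did not pass. Without knockout 3 neither Tfam nor Gabpa passed, and 1 did without control 1, control 3 or knockout 2.

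**Figure D4:**
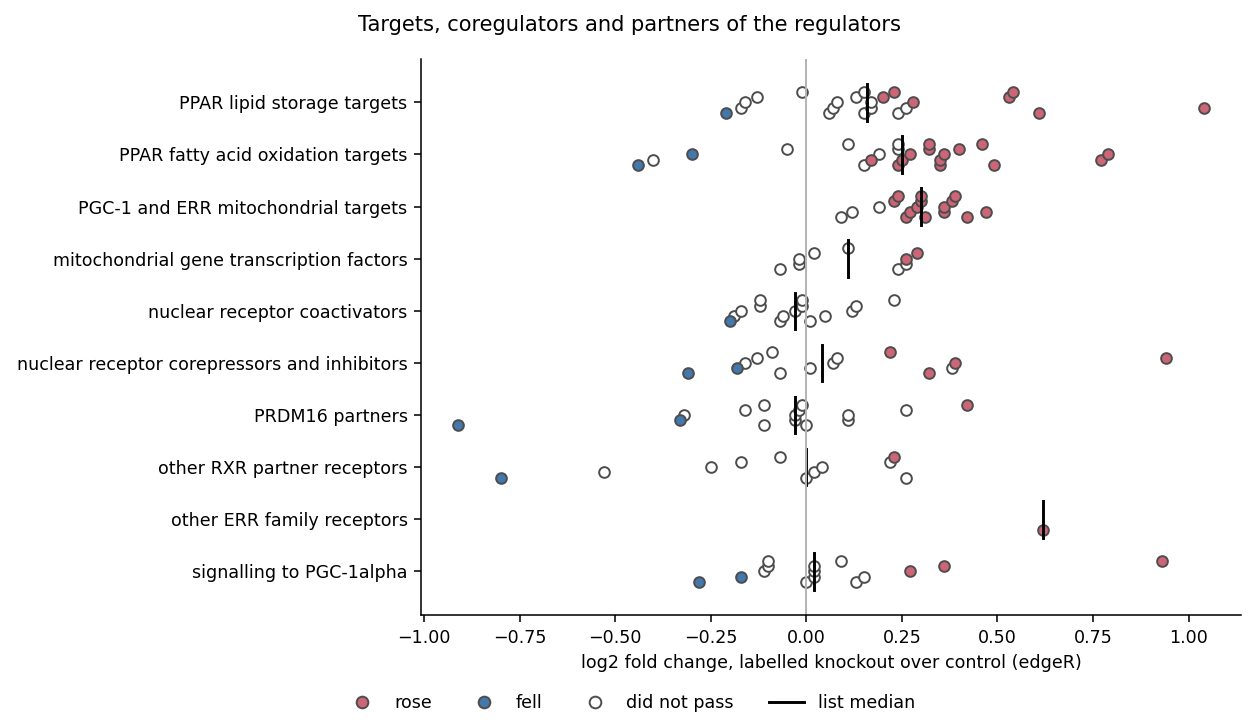
Log2 fold change (edgeR, libraries labelled knockout over controls) of each tested gene in 10 lists of targets, coregulators and partners; red genes rose, blue fell, open circles did not pass, and black bars are list medians. The medians are 0.30 for PGC-1 and ERR targets, 0.25 for fatty acid oxidation targets and 0.16 for lipid storage targets (which include Ucp1), against −0.03 for coactivators.

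Genes for coregulators of the receptors were split by list. Of 15 coactivator genes 0 rose and 1, Pprc1, fell (6.67%, against 12.3% of all genes). The list median was −0.03. Lpin1, the nearest to a rise, had a log2 difference of 0.23 (edgeR adjusted p 0.0512). At an unadjusted p under 0.05 the list held 2 higher and 5 lower genes in edgeR; 1 was called higher with DESeq2, with library size alone, with the replicate block and without control 2, and 0 with limma-voom. The lower calls numbered 2 with library size alone, with the replicate block and without control 2, and 0 without control 1, knockout 2 or knockout 3. Of 14 corepressor and inhibitor genes 6 were called (42.9%, against 12.3% of all genes). The 4 that rose are of the Groucho family: Tle3 itself, Aes (1.31-fold, adjusted p 0.000889), Tle4 (1.25-fold) and Tle1 (1.17-fold). The share thus includes Tle3, the gene targeted for deletion. Tle2, of the same family, overlapped between groups and did not pass (log2 0.38, edgeR adjusted p 0.188). Nrip1, which represses PPAR and ERR targets in fat, fell by 0.31 (adjusted p 0.00251) and Tbl1x, a subunit of the NCoR complex, by 0.18 on the log2 scale (0.0148). Ncor1 had a log2 difference of 0.07 (adjusted p 0.3). The calls for Tle1, Tle4 and Tbl1x were each lost without at least 1 library, all 3 of them without knockout 3 (adjusted p 0.0636 to 0.0828). That for Tle1 was lost without any 1 library but control 1 (edgeR adjusted p 0.0636 to 0.12), and also with DESeq2 on all 6 libraries (0.0742).

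Among 15 known partners of PRDM16, Ebf2, which marks brown and beige precursors, rose 1.34-fold from 86 ± 11.3 to 115.1 ± 6.97 CPM (SD, n = 3; edgeR adjusted p 0.00876). Irf4, a factor of the thermogenic program, fell from 15.5 ± 2.16 to 8.18 ± 1.34 CPM (adjusted p 0.00212). Zfp423, a repressor of the thermogenic program, fell by 0.33 on the log2 scale (adjusted p 0.0102). Genes of its chromatin partners had small differences that did not pass, with log2 values of −0.03 for Ehmt1, −0.01 for Ctbp1 and −0.11 for Ctbp2. Of the 15 genes 20% were called, against 12.3% of all genes. The median over the list was −0.03, and 2 genes rose without control 2.

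Of 11 tested genes for other receptors that pair with RXR, 2 were called (18.2%, near the 12.3% of all genes). The LXRα gene Nr1h3 rose from 41.1 ± 2.02 to 48.2 ± 3.02 CPM (edgeR adjusted p 0.0302) and the early response receptor gene Nr4a1 fell from 35.8 ± 3.6 to 20.6 ± 0.875 CPM (SD, n = 3; adjusted p 0.000201). The thyroid hormone receptor genes Thra and Thrb, whose ligand was in the medium, had log2 differences of 0.04 (adjusted p 0.671) and −0.07 (0.728). The list median was −0.00. The call for Nr1h3 ended with DESeq2 (adjusted p 0.0547) and also without control 1, control 3 or knockout 3 (0.0654 to 0.147), and 3 genes fell without control 2.

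Of 15 genes of signalling to PGC-1α, 3 rose and 2 fell (33.3%, against 12.3% of all genes), with a median of 0.02. Adrb1, the β1-adrenergic receptor gene, rose 1.91-fold from 4.35 ± 0.782 to 8.23 ± 0.548 CPM and Atf2, which binds the Ppargc1a promoter, 1.29-fold from 121.7 ± 3.98 to 156.5 ± 3.67 CPM (SD, n = 3; edgeR adjusted p 0.0025 and 0.000568). The AMP kinase subunit gene Prkaa2 rose by a log2 of 0.27 (adjusted p 0.0365). Mef2a (log2 −0.28, 0.00249) and the calcineurin gene Ppp3ca (−0.17, 0.0469) fell. Adrb3, the main adrenergic receptor of mouse fat cells, had a log2 difference of 0.15 (adjusted p 0.273). The call for Prkaa2 was lost (adjusted p 0.0926 to 0.158) when any 1 library other than control 2 and knockout 1 was left out. That for Ppp3ca was lost with DESeq2 (0.0817) and in each fit that left out a library except control 2 (0.0599 to 0.165).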

How the data were processed

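The authors deposited read counts per gene for 6 libraries of stranded poly(A) RNA, per the file headers, beside FPKM values rounded to whole numbers, which count here as a score and serve for comparing levels of different genes. The submitters' processing notes name Novoalign 2.8, Picard and DESeq2 with mm9; the sources used here do not give their roles, the read counter, its annotation or its strand setting.

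Counts were fitted with edgeR 4.0.16 (R 4.3.3) on all 6 libraries with the group as the only term: expression filter (13192 of 13962 genes kept), TMM scaling, quasi-likelihood test, Benjamini-Hochberg adjustment over all tested genes, threshold 0.05. CPM use TMM-scaled library sizes. Each SE was derived from the fold change and its F statistic. The biological coefficient of variation was 5.25%. Library pairs within a group differed beyond sampling noise (chi-square per degree of freedom 2.88 to 7.53). Alternatives were DESeq2 1.42.0, limma-voom (limma 3.58.1), other scalings, no filter, a replicate block and leaving out each library; the fit was tested on simulated counts. Columns were matched to samples by the sample descriptions.

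The 10 genes, the 10 target and partner lists and the 5 marker lists were chosen from textbook knowledge with earlier results of these data known. The text names the 10 genes, Tle3, from each list all called genes (or, above 5, up to 4 per direction with the smallest adjusted p) and the 3 most alike genes for Pparg, Ppargc1a and Prdm16. Other genes that did not pass are named as examples chosen after their values were seen, as were the promoter motifs. Of the called marker genes, Lep, Retn, Slc2a4 and Lipe (adipocyte) rose, Dlk1 and Postn (preadipocyte) rose, and Lum, Fn1, Thy1 and Pdgfra fell. The call for Postn was lost with library size alone (adjusted p 0.0638) and without any 1 library but control 3 (0.0625 to 0.154), which left 1 preadipocyte marker that rose; that for Lipe was lost (0.0612 to 0.155) when any 1 library other than control 2 and knockout 1 was left out, and that for Pdgfra without knockout 2 or 3 (0.0541 and 0.0589). One list gene is not reported here. Coordinates come from RefSeq on GRCm38.p6 and not from the build of the counts.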

Additional observations from a re-analysis of the deposited data

How the results depend on the processing

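The directions of the 10 genes were the same in all 12 alternatives. Calls changed for Pparg and Ppard (gained, each without 1 library) and Rxrg (lost, each time without 1 library), as given above, and for no others of the 10; DESeq2, limma-voom, RLE scaling, library size alone, no filter and the replicate block each called 5 genes higher and 1 lower. Over all tested genes the calls numbered 1629, and from 621 to 1895 when 1 library was left out (332 to 1025 higher, 289 to 870 lower): without control 1 there were 976, without control 3 1068, and without knockout 2 or 3 there were 962 or 621. The Pparg to Ppard ratio, near 0 at −0.02, ranged from −0.06 to 0.04 and turned positive without control 2 (0.04); the other 5 ratios kept their sign. Per kilobase of annotated exons 5 of 10 genes kept their rank of level. Of 44 list genes named in the text under the naming rule, 30 kept their call in every alternative. Same-numbered libraries of the groups did not deviate together (correlations −0.0396, 0.191 and 0.0308), and not every library correlated best with its own number; with the replicate block 1809 genes were called. With 3 libraries per group exact tests could not go below p = 0.1.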
